A study of Mus musculus with 6 samples.

Results

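The vacuolar proton pump, or V-ATPase, was examined through 10 genes for its subunits and assembly factors, measured among 21006 genes in mouse prefrontal cortex. These were Ccdc115, Tmem199 and Vma21, which help to assemble the pump, the accessory subunits Atp6ap1 and Atp6ap2, the membrane subunits Atp6v0a1 and Atp6v0d1, and the cytosolic subunits Atp6v1a, Atp6v1b2 and Atp6v1h. The group was selected on measured values: it was put together because the level of Ccdc115 stood apart between the groups compared below, and its other genes were added for their known roles in the same pump. The difference of Ccdc115 is therefore given as a description, as are the differences of the other 9 genes. Their 95% intervals and their count past the study's cut-off describe these samples and are not offered as tests. All 10 genes were matched by Ensembl identifier, and all 10 passed the low-value filter of a mean of at least 0.1 FPKM (fragments counted per length of exon and per depth of sequencing).

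The samples came from male C57BL/6 mice, wild type in genotype and 18 months old per the age label, although the sample titles carry "17M". The PND group (postoperative neurocognitive disorder model, n = 3) received isoflurane anesthesia and an exploratory laparotomy, the surgical opening and inspection of the abdomen, with lidocaine cream and povidone iodine on the wound afterwards. The CON group (n = 3) was given neither anesthesia nor operation, so anesthesia, surgery and wound care cannot be told apart. At harvest, which followed a spatial memory test in the Barnes maze, mice of both groups were put under deep isoflurane anesthesia before saline perfusion, so that this exposure was shared. Each sample was the prefrontal cortex of 1 animal, a mixture of neurons, glia and vessel cells.

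The V-ATPase is a rotary pump that uses ATP to move protons into lysosomes, endosomes, the Golgi and secretory and synaptic vesicles. Its cytosolic V1 sector splits ATP, and its membrane V0 sector carries the protons. V0 is put together in the endoplasmic reticulum with the help of dedicated assembly factors that are not part of the finished pump. In neurons the proton gradient also drives the loading of transmitter into synaptic vesicles.

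Ccdc115 encodes an assembly factor of the endoplasmic reticulum and Golgi that works with the product of Tmem199, and inherited loss of either gene in people is known to disturb protein glycosylation. Ccdc115 (ENSMUSG00000042111) lies on the minus strand at chr1:34436670-34439672 of GRCm38, with 5 merged exons of 2543 bases in all. It starts 179 bases from Imp4 (ENSMUSG00000026127), a gene for a component of ribosomal RNA processing that is read in the opposite direction. The stretch between the RefSeq starts of these 2 genes (chr1:34439673-34439828 of GRCm38.p6, minus strand, 156 bases with 53.2% GC) is shown because it lies between Ccdc115, whose levels were apart between the groups, and Imp4, whose levels overlapped. The capitals mark CACGTG, the core of a sequence known to be bound by TFEB and related factors at many lysosomal genes.
Ccdc115-Imp4: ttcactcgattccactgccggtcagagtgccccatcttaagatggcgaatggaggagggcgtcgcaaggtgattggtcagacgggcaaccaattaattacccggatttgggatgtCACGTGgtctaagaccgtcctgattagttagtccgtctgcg

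RefSeq promoter windows, from 250 bases before to 50 after each start, were held for 8 of the 10 genes, in 9 windows; Atp6v1b2 and Atp6v1h had no entry. CACGTG, which reads the same on both strands, occurred in 5 of the 9 windows (55.6%), belonging to 4 genes, against 2349 of all 32851 windows (7.15%). The longer form TCACGTGA, whose matches are also matches of CACGTG, occurred in 3 of the 9 windows (33.3%) against 320 of all windows (0.974%). In the windows of the other listed V-ATPase genes CACGTG occurred in 3 of 29 (10.3%), and in those of the listed lysosome genes in 7 of 24 (29.2%). The matches are shown with their flanks (GRCm38.p6, capitals marking CACGTG) so that they can be compared; they are matches of letters and not measured binding sites.
Ccdc115 (chr1:34439698-34439723, minus strand): tttgggatgtCACGTGgtctaagacc
Atp6v0d1 (chr8:105566052-105566077, minus strand): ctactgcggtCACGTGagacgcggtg
Atp6v1a (chr16:44139375-44139400, minus strand): ttttttaaatCACGTGataggcttaa
Vma21, window 1 (chrX:71815830-71815853, plus strand): cagtgtgtCACGTGgaacacccag
Vma21, window 2 (chrX:71816696-71816721, plus strand): gcgggtaagtCACGTGagtgcttgca
The 4 genes with a match included Ccdc115, which differed most between the groups, and Vma21, Atp6v1a and Atp6v0d1, whose levels overlapped between them.

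The effective depth was between 7180000 and 9384000 fragments per library, as estimated from step sizes among low values. Genes of cortical projection neurons were present in every sample. The summed level of 5 choroid plexus markers was 1.07 to 1.53 FPKM in PND and 0.774 to 1.32 FPKM in CON, with Folr1 (at most 0.0545 FPKM) and Ttr (at most 0.208 FPKM) at or near 0, and Kl (0.353 to 0.639 FPKM) and Kcnj13 (0.321 to 0.817 FPKM) present in every sample. Genes of the striatum were measured in both groups, with a summed level of 101.1 to 122.9 FPKM in PND and 70.6 to 163 FPKM in CON. The summed level of 5 of 5 microglia markers was 39.9 to 43.5 FPKM in PND and 43.7 to 48.6 FPKM in CON, and that of 5 of 5 endothelium markers was 26.2 to 34.5 FPKM in PND and 22.9 to 25.7 FPKM in CON. These 2 sums did not overlap between the groups, as Ccdc115 did not. The sum of 5 of 5 astrocyte markers overlapped (260 to 378 FPKM in PND, 206 to 507 FPKM in CON), but 2 of the 5 did not: Gfap was at 17.7 to 24.7 FPKM in PND and 13.0 to 14.9 FPKM in CON, and Aqp4 at 21.5 to 25.6 FPKM in PND and 26.8 to 34.5 FPKM in CON. The part of these cell type markers in the values below was not tested.

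The level of Ccdc115 was lower in every PND sample than in any CON sample. It was 0.940, 0.841 and 1.48 FPKM in PND replicates 1 to 3, and 5.51, 4.56 and 4.82 FPKM in CON replicates 1 to 3. The lowest CON sample thus lay well above the highest PND sample, and the spread within each group was small beside the gap between them. PND averaged 1.09 ± 0.342 FPKM and CON 4.96 ± 0.493 FPKM (mean ± SD, n = 3 each), which puts the PND mean at 0.219 times the CON mean. The log2 fold change, on the log2(FPKM + 0.1) scale and as PND minus CON throughout, was -2.13 (SE 0.24, 95% interval -2.69 to -1.56). At the estimated depth the PND samples held 21.2, 16.9 and 35.2 fragments of Ccdc115, and the CON samples held 105, 94.3 and 87.9. In bulk tissue, fewer cells that express a gene and less of its RNA per cell cannot be told apart.

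The genes beside Ccdc115 were read in the same samples. Imp4 was measured at 2.53, 1.77 and 2.49 FPKM in PND and at 2.16, 2.87 and 2.23 FPKM in CON, so its groups overlapped, and its log2 fold change was -0.10 (SE 0.22). The lincRNA Gm37233, 3406 bases from Ccdc115, gave 4.08, 4.67 and 4.08 FPKM in PND and 3.73, 4.35 and 3.86 FPKM in CON. The pseudogene Gm3052, 18684 bases away, gave 0.9997, 0.787 and 0.663 FPKM in PND and 1.05, 0.683 and 0.865 FPKM in CON. None of the 3 genes passed the study's cut-off (absolute log2 fold change above 1 and unadjusted p below 0.05). Ptpn18, a phosphatase gene 20090 bases away, was at most 0.0177 FPKM in any sample. The annotation also places Gm28306 over 162 exon bases of Ccdc115, on the same strand, and the processed pseudogene Gm7774 repeats 195 bases of Ccdc115 without a mismatch. Neither had a value here, and how the counting treated fragments from these bases was not tested.

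**Figure D1:**
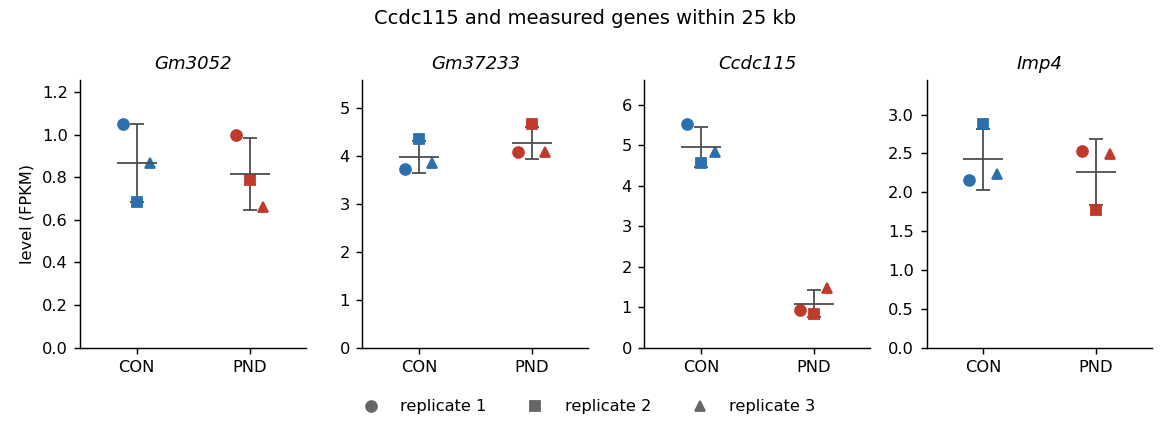
Level in FPKM (y axis, each panel from 0 and on its own scale) of Ccdc115 and of 3 measured genes within 25 kb of it, in the CON and PND groups (x axis). Points are animals, horizontal lines are means and bars are SD (n = 3); the groups are apart for Ccdc115 and overlap for Gm3052, Gm37233 and Imp4.

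Over the 6 samples, genes whose log2 levels followed Ccdc115 closely, among 12322 genes averaging 1 FPKM or more, included Lmnb1, Ube2l3, Pdia3 and Ctsc. Lmnb1 encodes a nuclear lamin and had a Pearson r of 0.990 with Ccdc115. Ube2l3, for a ubiquitin-conjugating enzyme, had an r of 0.979, with 2.12 to 2.76 FPKM in PND and 6.95 to 7.85 FPKM in CON. Pdia3, a protein folding enzyme of the endoplasmic reticulum, had an r of 0.979 (46.1 to 47.5 FPKM in PND, 54.2 to 56.7 FPKM in CON), and Ctsc, a lysosomal protease, had an r of 0.976. The most opposite patterns were those of F830212C03Rik (r = -0.982), Gm43206 (r = -0.980) and Cog7 (r = -0.980), which encodes a Golgi tethering subunit. Since Ccdc115 split the samples by group, so did each of these genes, and the r values over 6 samples that share libraries describe that split and nothing more.

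Tmem199, the partner of Ccdc115 in V0 assembly, overlapped between the groups. Tmem199 (ENSMUSG00000051232, chr11:78507055-78512172) was at 3.64, 2.35 and 3.995 FPKM in PND and at 1.94, 5.33 and 4.96 FPKM in CON. The lowest and the highest samples were both CON samples. Its mean was 3.33 ± 0.865 FPKM in PND and 4.08 ± 1.86 FPKM in CON, and its log2 fold change was -0.19 with a 95% interval of -1.13 to 0.74, so that a change of 2-fold downwards lay inside the interval. The ratio of Ccdc115 to Tmem199 was 0.258, 0.358 and 0.369 in PND and 2.83, 0.856 and 0.972 in CON. Over the 6 samples the levels of these 2 genes had a Pearson r of 0.19.

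Vma21 encodes a small membrane protein that escorts the assembled V0 sector out of the endoplasmic reticulum, and its loss in people is known to cause an X-linked muscle disease with excess autophagy. Vma21 (ENSMUSG00000073131, chrX:71815924-71839757) was at 14.1, 14.4 and 11.7 FPKM in PND and at 15.3, 12.4 and 14.2 FPKM in CON. The groups overlapped, and the log2 fold change was -0.06 with a 95% interval of -0.38 to 0.26. Of the summed level of the 3 assembly factors, Ccdc115 made up 5.04%, 4.79% and 8.57% in PND and 24.2%, 20.5% and 20.1% in CON.

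The accessory subunits Atp6ap1 and Atp6ap2 span the membrane. Atp6ap1 (ENSMUSG00000019087, chrX:74297097-74304721) was at 9.93, 14.9 and 10.1 FPKM in PND and at 6.01, 11.3 and 7.84 FPKM in CON, with the highest CON sample above 2 of the PND samples. Its log2 fold change was 0.49 (95% interval -0.12 to 1.10), the value farthest above 0 among the 10 genes, and an increase of 2-fold lay inside the interval. Atp6ap2 (ENSMUSG00000031007, chrX:12587801-12617049), also known as the prorenin receptor, was at 59.5, 51.1 and 52.1 FPKM in PND and at 56.4, 58.8 and 54.6 FPKM in CON. Its groups overlapped, with a log2 fold change of -0.06 (95% interval -0.30 to 0.17).

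In the V0 sector, Atp6v0a1 encodes the neuronal form of the large subunit through which protons pass, and Atp6v0d1 joins V0 to the rotor of the pump. Atp6v0a1 (ENSMUSG00000019302, chr11:101009452-101063719) was at 33.1, 27.2 and 31.0 FPKM in PND and at 28.7, 31.9 and 28.1 FPKM in CON, with a log2 fold change of 0.04 (95% interval -0.23 to 0.31). Atp6v0d1 (ENSMUSG00000013160, chr8:105524465-105566047) was at 36.1, 24.1 and 35.8 FPKM in PND and at 25.5, 38.8 and 25.3 FPKM in CON, with a log2 fold change of 0.10 (95% interval -0.42 to 0.63). For both genes PND replicate 2 was the lowest sample, PND replicates 1 and 3 and CON replicate 2 were the 3 highest, and the groups overlapped.

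In the V1 sector, Atp6v1a encodes the catalytic subunit that splits ATP, Atp6v1b2 the brain form of the B subunit beside it, and Atp6v1h a regulatory subunit that couples V1 to V0. Atp6v1a (ENSMUSG00000052459, chr16:44085402-44139705) was at 52.1, 43.3 and 51.9 FPKM in PND and at 49.1, 61.3 and 48.2 FPKM in CON, with a log2 fold change of -0.10 (95% interval -0.42 to 0.21). Atp6v1b2 (ENSMUSG00000006273, chr8:69088646-69113711) was at 55.4, 41.1 and 51.2 FPKM in PND and at 43.0, 52.1 and 42.9 FPKM in CON, with a log2 fold change of 0.09 (95% interval -0.24 to 0.43). Both overlapped between the groups. Atp6v1h (ENSMUSG00000033793, chr1:5070018-5162529) was at 13.5, 12.9 and 11.6 FPKM in PND and at 13.5, 12.1 and 13.1 FPKM in CON, with a log2 fold change of -0.02 (95% interval -0.30 to 0.25). Its exons overlap 127 bases of Rgs20 on the opposite strand, and the use of strand in counting was not stated.

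**Figure D2:**
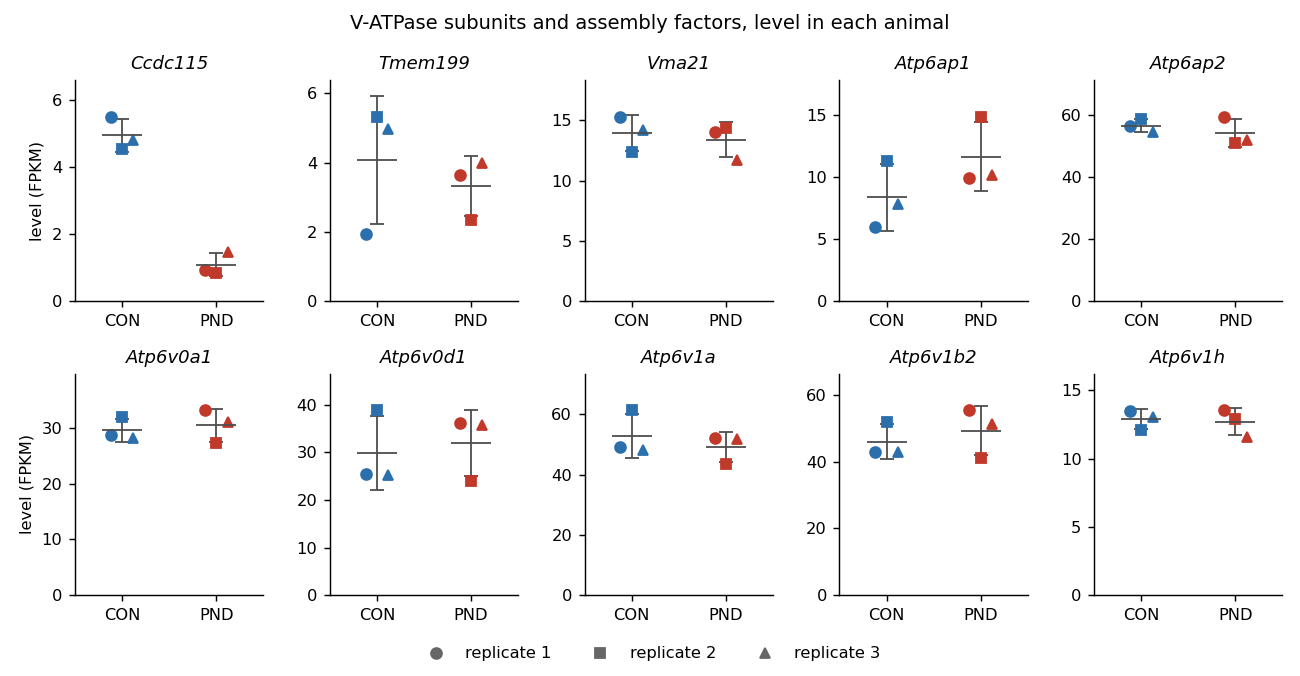
Level in FPKM (y axis, each panel from 0 and on its own scale) of the 10 V-ATPase genes in the CON and PND groups (x axis). Points are animals, horizontal lines are means and bars are SD (n = 3); the groups are apart for Ccdc115 and overlap for the other 9 genes.

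By mean level per exon length over the 6 samples, the order was Atp6ap2 (55.4 FPKM), Atp6v1a (51.0 FPKM), Atp6v1b2 (47.6 FPKM), Atp6v0d1 (30.9 FPKM), Atp6v0a1 (30.0 FPKM), Vma21 (13.7 FPKM), Atp6v1h (12.8 FPKM), Atp6ap1 (10.02 FPKM), Tmem199 (3.70 FPKM) and Ccdc115 (3.02 FPKM). The sample ranges of neighbours in this order were apart at 3 places, below Atp6v1b2, below Atp6v0a1 and below Atp6ap1, and overlapped at all others. The partners Ccdc115 and Tmem199 came last in this order of means over both groups. In CON alone the mean of Ccdc115 (4.96 FPKM) lay above that of Tmem199 (4.08 FPKM) with overlapping ranges, and in PND it lay below (1.09 FPKM against 3.33 FPKM).

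Of the 10 genes, 1 passed the study's cut-off, Ccdc115, and it was lower in PND. Over all 18185 genes tested, 1.33% passed the cut-off and 0.484% passed it as lower in PND, and since Ccdc115 was what the group was selected on, nothing is read from its count. The groups did not overlap for 1 of the 10 genes, again Ccdc115, against 7.66% of all genes tested. Of the other 9 genes, 0 passed the cut-off or had groups that did not overlap, 4 lay above 0 and 5 below, and their log2 fold changes ranged from -0.19 to 0.49 with a median of -0.02, beside a median of 0.01 for all genes. For 7 of the 9 the 95% interval lay within 1 of 0 on the log2 scale, the exceptions being Tmem199 and Atp6ap1. Over 16 alternative settings the log2 fold change of Ccdc115 lay between -2.35 and -1.52, given as a description like its other values. That of Atp6ap1 stayed above 0 (0.28 to 0.73) and that of Atp6ap2 below 0 (-0.13 to -0.02). Of the other 7 genes, Atp6v1b2 came down to 0.00 without falling below it, and the rest changed sign in at least 1 setting.

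The other genes of the pump were taken from a list chosen by function. Of 30 listed genes, 25 were measured and 24 tested, and 0 passed the cut-off in limma; none had an unadjusted p below 0.05. Of the 24, 15 lay above 0 and 9 below, with a median log2 fold change of 0.07 and a range of -0.27 to 0.44. The groups did not overlap for 2 of the 24 (8.33%), beside the 7.66% of all genes. These were Atp6v0e, a small V0 subunit (4.41 to 5.24 FPKM in PND, 4.05 to 4.28 FPKM in CON), and Tbc1d24, a synaptic vesicle protein that binds the pump (1.60 to 1.75 FPKM in PND, 1.38 to 1.58 FPKM in CON). Tbc1d24 was named after its values were seen, and Atp6v0e was among the 3 other V0 subunits with the highest means.

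Among the other V1 subunits, 7 were tested. The rotor subunit Atp6v1d had the highest mean of any V-ATPase subunit measured, 180 FPKM (161 to 191 FPKM over the 6 samples), followed by Atp6v1c1 with 125 FPKM (117 to 132 FPKM), a subunit that takes part in the reversible joining of V1 and V0. Atp6v1e1, of the outer stalk, had a mean of 23.9 FPKM. Among the other V0 subunits, 7 were tested, and Atp6v0e2 had the highest mean, 24.9 FPKM. Rnasek, which is part of V0, was at 3.48, 3.45 and 8.93 FPKM in PND and at 2.89, 13.5 and 3.98 FPKM in CON, so that 1 CON sample and 1 PND sample lay above the rest. Atp6v0c, which encodes the proton-binding ring and was named after its values were seen, was at 3.75, 2.92 and 4.70 FPKM in PND and at 1.14, 5.82 and 2.96 FPKM in CON. Among 10 assembly and regulatory genes tested, Oxr1 (83.4 FPKM), Ncoa7 (46.4 FPKM) and Wdr7 (44.4 FPKM) had the highest means. Oxr1 and Ncoa7 encode proteins of a family that binds V1, and the Wdr7 protein belongs to a complex that aids the assembly of the pump. Ncoa7 had a log2 fold change of -0.23 (95% interval -0.48 to 0.02), the smallest p among the 24 genes before adjustment, with an adjusted p of 0.9999 in limma.

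**Figure D3:**
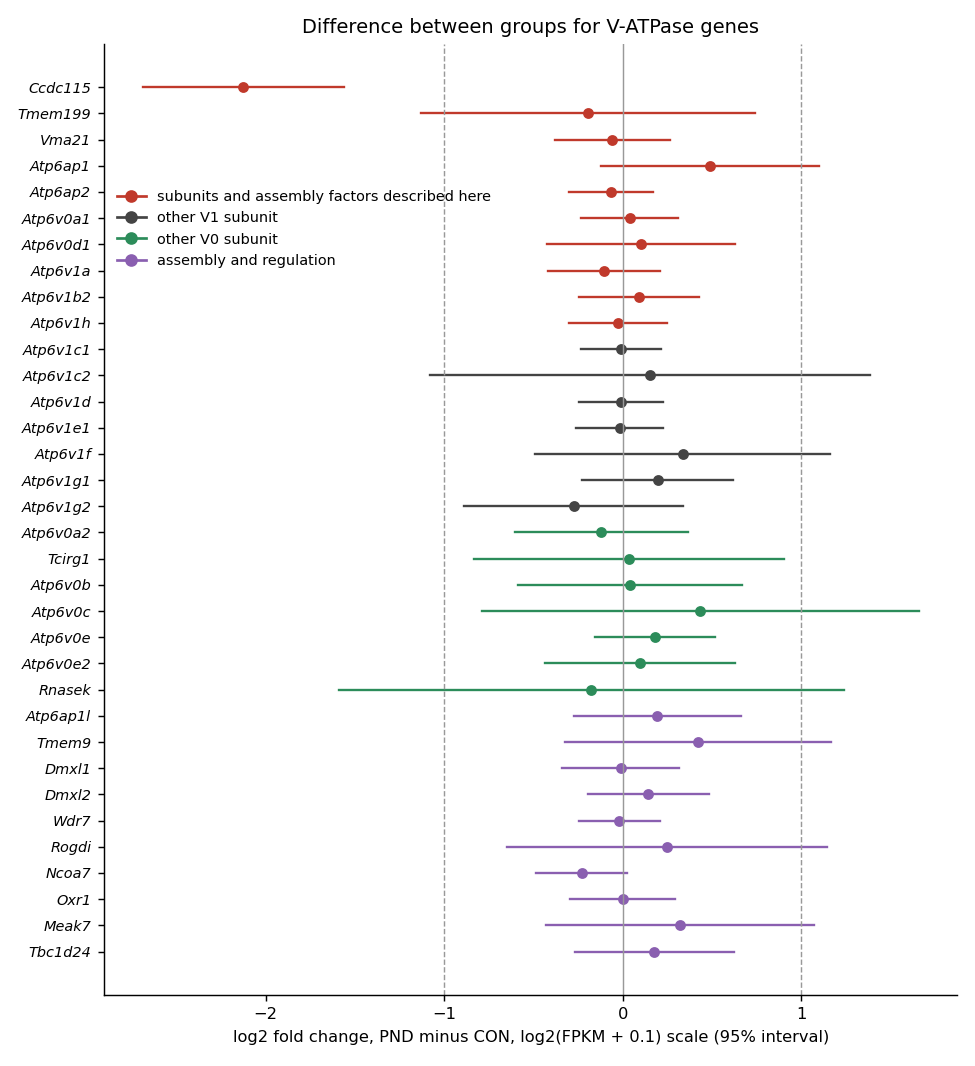
Log2 fold change (x axis, PND minus CON on the log2(FPKM + 0.1) scale) of the 10 V-ATPase genes and of the 24 other listed V-ATPase genes tested (y axis). Points are estimates and lines 95% intervals from limma, and dashed lines mark a change of 1 on the log2 scale; Ccdc115 lies at -2.13 and all others lie between -0.27 and 0.49.

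Lysosomes hold the digestive enzymes that need the acid made by the V-ATPase, and 22 of 22 listed lysosome genes were tested. In limma 0 of the 22 passed the cut-off, 2 had an unadjusted p below 0.05, and 0 had an adjusted p below 0.05. The log2 fold changes lay above 0 for 13 genes and below 0 for 9, with a median of 0.08. The groups did not overlap for 1 gene (4.55%), Tpp1, a lysosomal peptidase named after its values were seen. Tpp1 was at 15.1, 13.2 and 16.3 FPKM in PND and at 11.6, 11.3 and 11.7 FPKM in CON (log2 fold change 0.35, adjusted p = 0.9999 in limma). Ctsb, a cysteine protease among the 3 most abundant of the list with Lamp1 and Psap, was at 52.1, 46.3 and 57.2 FPKM in PND and at 36.2, 48.2 and 37.4 FPKM in CON (log2 fold change 0.36, adjusted p = 0.9999 in limma). Lamp1, a major lysosomal membrane protein, had a mean of 117 FPKM and a log2 fold change whose 95% interval ran from -0.23 to 0.45.

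Several V-ATPase genes varied together over the samples without regard to group. Atp6v0a1 and Atp6v1b2 had a Pearson r of 0.99 over the 6 samples, Atp6v0d1 and Atp6v1b2 an r of 0.96, and Atp6v0a1 and Atp6v0d1 an r of 0.95. These 3 genes were high in PND replicates 1 and 3 and in CON replicate 2, and low in the other 3 samples. Vma21 and Atp6v1h had an r of 0.94, and Vma21 and Atp6v0d1 an r of -0.76. All of these values come from the same 6 libraries and are given as a description.

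The GC content of the transcripts was set beside this pattern. Vma21 (37.3% GC) and Atp6v1h (37.6% GC) had the lowest GC content of the 10 genes, and Atp6v0d1 (53.4% GC) the highest. Deviations from the gene means were taken for the tenth with the highest GC content among genes averaging 1 FPKM or more. Their medians on the log2 scale were 0.106, -0.304 and 0.370 in PND replicates 1 to 3, and -0.562, 0.489 and -0.0347 in CON replicates 1 to 3. When each library was corrected for GC content, the SE of the log2 fold change fell from 0.225 to 0.129 for Atp6v0d1, from 0.144 to 0.0989 for Atp6v1b2 and from 0.138 to 0.0853 for Vma21, while it rose from 0.101 to 0.119 for Atp6ap2 and from 0.134 to 0.149 for Atp6v1a. For Ccdc115 (44.8% GC) the SE went from 0.240 to 0.230, and the log2 fold change was -2.11 after correction.

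**Figure D4:**
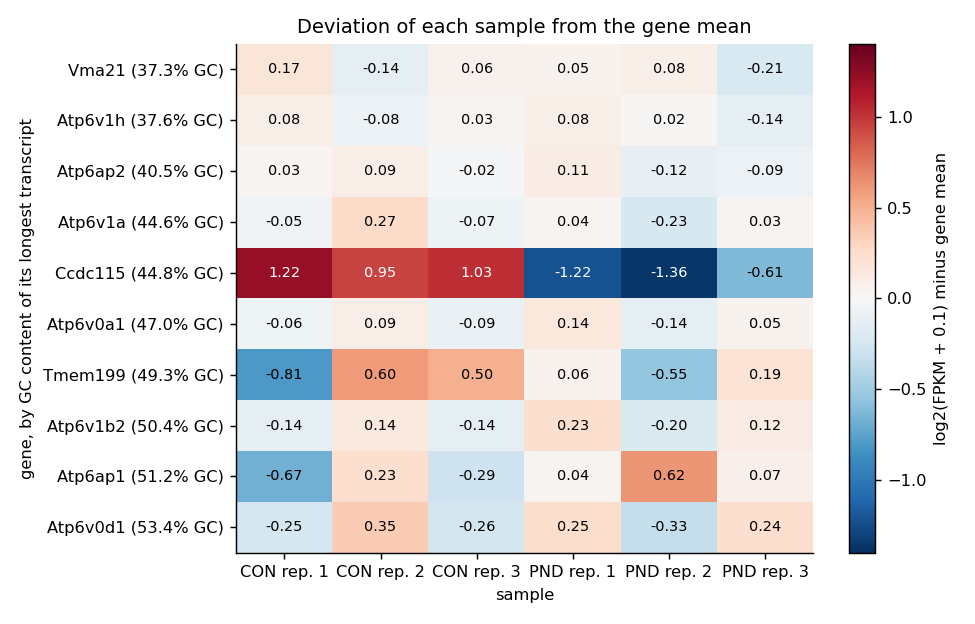
Deviation of each sample (x axis) from the gene's mean over the 6 samples, on the log2(FPKM + 0.1) scale (colour and printed value), for the 10 V-ATPase genes ordered by GC content (y axis). Ccdc115 is above its mean in all CON samples and below it in all PND samples, while Atp6v0d1 and Atp6v1b2 are above it in PND replicates 1 and 3 and CON replicate 2.

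Over 19 genes for V0 and V1 subunits, which share the same libraries, the ratio of the highest to the lowest sample had a Spearman correlation of 0.775 with GC content. With the assembly and accessory genes added, Ccdc115 had the widest ratio of 24 genes, 6.55, followed by Atp6v1c2 (6.42), Atp6v0c (5.09) and Rnasek (4.66). Atp6v1c2, a minor form of the C subunit that was named after its values were seen, had a mean of 0.445 FPKM, and its samples from both groups overlapped. Atp6v0c has a GC content of 52.1% and Rnasek one of 57.3%, and in both CON replicate 2 was the highest and CON replicate 1 the lowest sample. Among these 4 genes with a ratio above 4, the groups did not overlap for Ccdc115 and overlapped for the other 3.

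**Figure D5:**
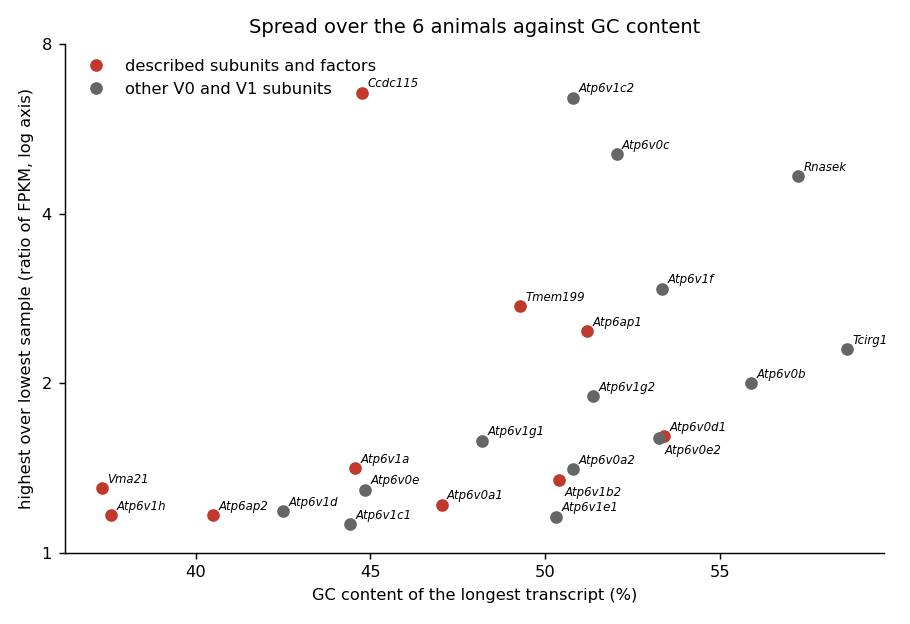
Ratio of the highest to the lowest of the 6 samples (y axis, log axis) against the GC content of the longest transcript (x axis, %), for the 10 V-ATPase genes and the other V0 and V1 subunits. Each point is a gene; Ccdc115 has the highest ratio, 6.55, at 44.8% GC, and the other genes with ratios above 4 lie at a GC content above 50%.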

How the data were processed

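Total RNA of 3 PND and 3 CON samples was depleted of ribosomal RNA and sequenced. Per the methods, the authors aligned reads with HISAT2, counted fragments with StringTie, scaled them by TMM and deposited FPKM for 21006 genes. The submitters' notes name Bowtie 0.12.2 and the builds mm8 and mm9 without a role; annotation and use of strand are not given in the sources used here. Groups came from the treatment labels and replicate numbers from the titles.

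The comparison of PND with CON used limma 3.58.1 (R 4.3.3; lmFit, eBayes with trend, two-sided) on log2(FPKM + 0.1), a scale that understates changes of low genes, over the 18185 genes averaging 0.1 FPKM or more, with Benjamini-Hochberg adjustment over all of them. Coordinates, exon overlaps and GC content were those of GENCODE M21 on GRCm38, which may differ from the build used for the files, and promoters those of RefSeq. Effective depth came from steps in the low values; 41.6% to 44.8% of those values lay within 0.05 of a whole fragment, so fragment numbers are estimates. The genes named were the 10 V-ATPase genes, the genes within 25 kb of Ccdc115, the 3 most abundant genes of each other list and the 8 genes most like or unlike Ccdc115, of which 1 is not reported here; other pump and lysosome genes are marked in the text, and single cell type markers were picked from their lists after their values were seen. The genes and lists were chosen with earlier results of these data known. On simulated data with 4-fold changes (18023 genes), 185 of 198 changed genes (93.4%) and 198 unchanged genes passed the cut-off. The simulation gave every gene the same spread between animals (dispersion 0.02) and no GC differences between libraries. Its rates therefore need not hold for the real samples. Another pseudocount, filter, scaling, GC correction, replicate block and leaving out each replicate were tried.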

Additional observations from a re-analysis of the deposited data

How the results depend on the processing

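Under each of the 16 alternatives, 0 of the other listed V-ATPase genes and 0 of the lysosome genes passed the cut-off. The log2 fold change of Ccdc115, a description, was -1.52 with a pseudocount of 1. Over all genes, 241 passed, against 59 with a mean of at least 1 FPKM, 25 with a pseudocount of 1, and 240 to 402 when 1 replicate was left out (402 without CON replicate 2). With quantile normalization 240 passed, of which 124 were higher in PND, against 153 of the 241. The replicate block gave 226, with an SE of 0.259 for Ccdc115 against 0.240 without it. Same-numbered samples did not deviate together (mean correlation -0.157, with -0.451 for replicate 2). No pairing by number was seen, but these correlations also carry differences between libraries and cannot settle it.

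Among the 10 V-ATPase genes, the log2 fold change took the opposite sign under 3 alternatives for Tmem199 and 4 each for Vma21 and Atp6v1h. It did so under 1 each for Atp6v0a1, Atp6v0d1 and Atp6v1a. Atp6v0a1 without CON replicate 3 and Atp6v1b2 without PND replicate 1 came to 0.00 without a change of sign. Among the other named genes, 30 values changed sign. They included 0.02 for Atp6v1d and 0.01 for Atp6v1c1 with GC correction, with or without the replicate block. They also included -0.01 for Oxr1 with median centring, and 0.06 for Atp6v1d, 0.03 for Atp6v1c1 and 0.00 for Atp6v1e1 with quantile normalization. Leaving out 1 replicate gave a range of -0.64 to 0.06 for Tmem199, -0.62 to 0.47 for Rnasek, -0.07 to 0.30 for Atp6v0e2, -0.18 to 0.06 for Imp4, -0.22 to 0.06 for Gm3052, -0.03 to 0.36 for Psap and -0.11 to 0.07 for Oxr1. For Atp6v1d it was -0.06 to 0.06, for Atp6v1c1 -0.06 to 0.03, for Atp6v1e1 -0.08 to 0.03 and for Wdr7 -0.07 to 0.03. The cause was not tested. The PND samples held an estimated 16.9 to 35.2 fragments of Ccdc115.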
